A study of Mus musculus with 6 samples.

Results

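The stefin A genes of the mouse are a family of related genes, some of them near-identical, that lie in a cluster on chromosome 16. The account covers 5 of them, Stfa1, Stfa2, Stfa3, Stfa2l1 and BC100530, out of 31054 features in the deposited matrix. They were selected on their measured CPM across gated progenitors, neutrophils, monocytes, macrophages and osteoclasts, for a steep drop between monocytes and macrophages, so those levels are given as a description and support nothing. All 5 were present in the matrix under these symbols, and none was used to sort cells into classes.

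Stefins, also called type 1 cystatins, are small inhibitors that stay inside the cell. They block cysteine cathepsins, the papain-like proteases of lysosomes, when these reach the cytosol. Humans have a single stefin A gene, whereas the mouse carries a tandem cluster, and in mice its products are known from neutrophils and skin. Neutrophils and monocytes both arise from granulocyte-monocyte progenitors, and monocytes can become macrophages and, by fusion, the bone-resorbing osteoclasts.

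The series concerns osteoclast precursors of mouse embryos and used droplet-based 3-prime single-cell RNA sequencing. It has 6 samples, 2 in each of 3 groups. The embryos were Cx3cr1CreER; R26tdTomato, from mothers given 4-hydroxytamoxifen at E9.5, or Csf1r-Mer-iCre-Mer together with Csf1r-EGFP and R26tdTomato, with the drug given at E8.5. In both, cells of the macrophage and monocyte lineage were collected from whole bodies at E14.5, and cells that used the Cx3cr1 or the Csf1r promoter at the time of the drug were marked for good by tdTomato. Wildtype C57BL/6 mice aged 2 months, with no drug, gave total bone marrow. The labels do not say how many embryos or mice went into a sample.

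Each barcode of the matrix carries a library number, 1 to 4, and none of the labels mentions these numbers. The cells were therefore treated as 1 pooled sample of 4 unnamed libraries, and no comparison between genotypes, injection days or ages was possible. The name of the matrix holds Cx3cr1 and Csf1r and no word for bone marrow. Whether it contains adult cells was not established. The libraries held 106500620 to 198754246 unique molecular identifiers (UMIs), and 34587 of 39048 barcodes were kept. Of 34007 different barcode sequences among them, 571 occurred in more than 1 library. Libraries 1 and 2 stood apart from libraries 3 and 4: neutrophils made up 0.0597% and 0.0425% of their cells, against 3.82% and 3.60%. Each level below is therefore also given by library where it matters. Levels are UMIs of a gene per 1000000 UMIs of a class (CPM). With 1 pooled sample no test was run, and the exact Poisson 95% intervals cover counting error only.

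Cells were sorted by how many markers of a type they held with at least 2 UMIs each. At least 3 markers were needed, 4 for macrophages, and a cell that passed the gates of several types was left out. This gave 851 progenitors (markers such as Elane and Mpo), 714 neutrophils (Ngp, Camp, Ltf), 4207 monocytes (Ly6c2, Ccr2, Plac8), 11863 macrophages (C1qa, Mrc1, Pf4) and 95 osteoclasts (Acp5, Ctsk, Mmp9), short names for ranges of a marker count. Of the monocytes, 2488 held exactly the number of markers needed, as did 297 progenitors, 64 neutrophils, 1134 macrophages and 20 osteoclasts. The median progenitor held 91.0 UMIs of its own markers per 10000 UMIs, 30.3 of monocyte markers and 0.368 of neutrophil markers. The median monocyte held 29.2 of its own, 2.31 of macrophage markers and 0.317 of neutrophil markers.

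The 5 genes span chr16:36156811-36455392 of GRCm38, the build called mm10, a stretch of 299 kb. In the GENCODE annotation Stfa2l1 (chr16:36156811-36161953) and Stfa1 (chr16:36276951-36285373) lie on the plus strand. BC100530 (chr16:36359382-36367748), Stfa2 (chr16:36403992-36408457) and Stfa3 (chr16:36450537-36455392) lie on the minus strand. An antisense gene, Gm15845, overlaps the first exon region of BC100530, at the end away from the 3-prime reads. Over the last 300 bases of their longest coding transcripts, where 3-prime reads fall, BC100530 and Stfa1 were identical at 98.7% of aligned bases, and Stfa2l1 and Stfa2 at 96.5%. The other pairs were identical at 76.7% to 83.3%. Of all 50-base windows in that stretch, 66.1% of those of BC100530 and 51.0% of those of Stfa1 occur in another gene of the cluster. The shares were 24.7% for Stfa2 and 24.3% for Stfa2l1, and no window of Stfa3 was shared. No source used here states how reads that fit several genes were counted, so the split of UMIs between Stfa1 and BC100530, and between Stfa2 and Stfa2l1, is uncertain.

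The starts of the genes are shown because all 5 have long stretches of promoter sequence in common. The sequences run from 100 bases before to 30 bases after the start of transcription given by RefSeq, from the RefSeq promoter table of GRCm38.p6, in which all 5 genes matched (BC100530 under the RefSeq symbol Cstdc5, through its gene ID). For Stfa1, BC100530 and Stfa2 that start lies inside the gene as GENCODE gives it. The printed stretches of Stfa1 and BC100530 lie wholly within the GENCODE genes, so distances from the start depend on the annotation. Capitals mark the letters GAGGAGGAG, TTTAAAA and, around the start, GGATCATTTCTTCTCAG.
Stfa1 (chr16:36277048-36277177, plus strand): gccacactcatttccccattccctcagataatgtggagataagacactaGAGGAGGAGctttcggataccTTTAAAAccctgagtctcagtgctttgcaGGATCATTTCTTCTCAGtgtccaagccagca
BC100530 (chr16:36367541-36367670, minus strand): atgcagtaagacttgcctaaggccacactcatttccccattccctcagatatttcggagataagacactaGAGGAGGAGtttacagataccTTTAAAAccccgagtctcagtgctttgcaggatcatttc
Stfa3 (chr16:36455363-36455492, minus strand): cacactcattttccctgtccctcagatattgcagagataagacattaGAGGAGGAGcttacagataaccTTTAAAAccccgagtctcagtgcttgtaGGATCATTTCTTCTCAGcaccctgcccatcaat
Stfa2 (chr16:36408334-36408463, minus strand): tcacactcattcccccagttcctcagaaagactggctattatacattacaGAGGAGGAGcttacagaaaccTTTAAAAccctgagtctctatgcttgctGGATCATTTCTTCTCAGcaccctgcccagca
Stfa2l1 (chr16:36156711-36156840, plus strand): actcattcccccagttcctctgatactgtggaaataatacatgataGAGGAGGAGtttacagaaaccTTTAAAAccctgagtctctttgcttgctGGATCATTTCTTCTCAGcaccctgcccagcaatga

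The run of 17 letters at the start is complete in all 5 promoters and is the longest run they share. In BC100530 it begins 20 bases after the start given by RefSeq and so extends past the printed end. On either strand it occurs in 6 of the 32851 mouse promoters of this length in the table, or 0.0183%, and it was picked because the 5 genes share it. TTTAAAA occurs in 8.74% and GAGGAGGAG in 3.37% of those promoters. The promoters of Stfa1 and BC100530 were identical at 96.4% of aligned bases and those of Stfa2 and Stfa2l1 at 92.9%, against 81.1% to 87.0% in the other pairs. The letters TTGCNNAA, which can be bound by C/EBP factors, and GAGGAAG, which can be bound by PU.1, were each present in the 300-base promoters of Stfa1 and BC100530 only (10.8% and 13.6% of all promoters, either strand). Such matches are letters in a window and not shown to be sites.

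All 5 genes had their highest level in neutrophils, where together they took 11.4% of all UMIs. The summed level was 2967 CPM in progenitors, 113516 CPM in neutrophils, 1524 CPM in monocytes, 48.2 CPM in macrophages and 45.8 CPM in osteoclasts. Neutrophils, progenitors and monocytes were the highest 3 of 18 classes, in this order, and their counting intervals did not overlap. Epithelial cells came next with 175 CPM, and from the fifth place on each interval overlapped that of the class next in order. The 5 genes differed in how they were spread over progenitors and monocytes, as the plot of levels by class shows.

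**Figure D1:**
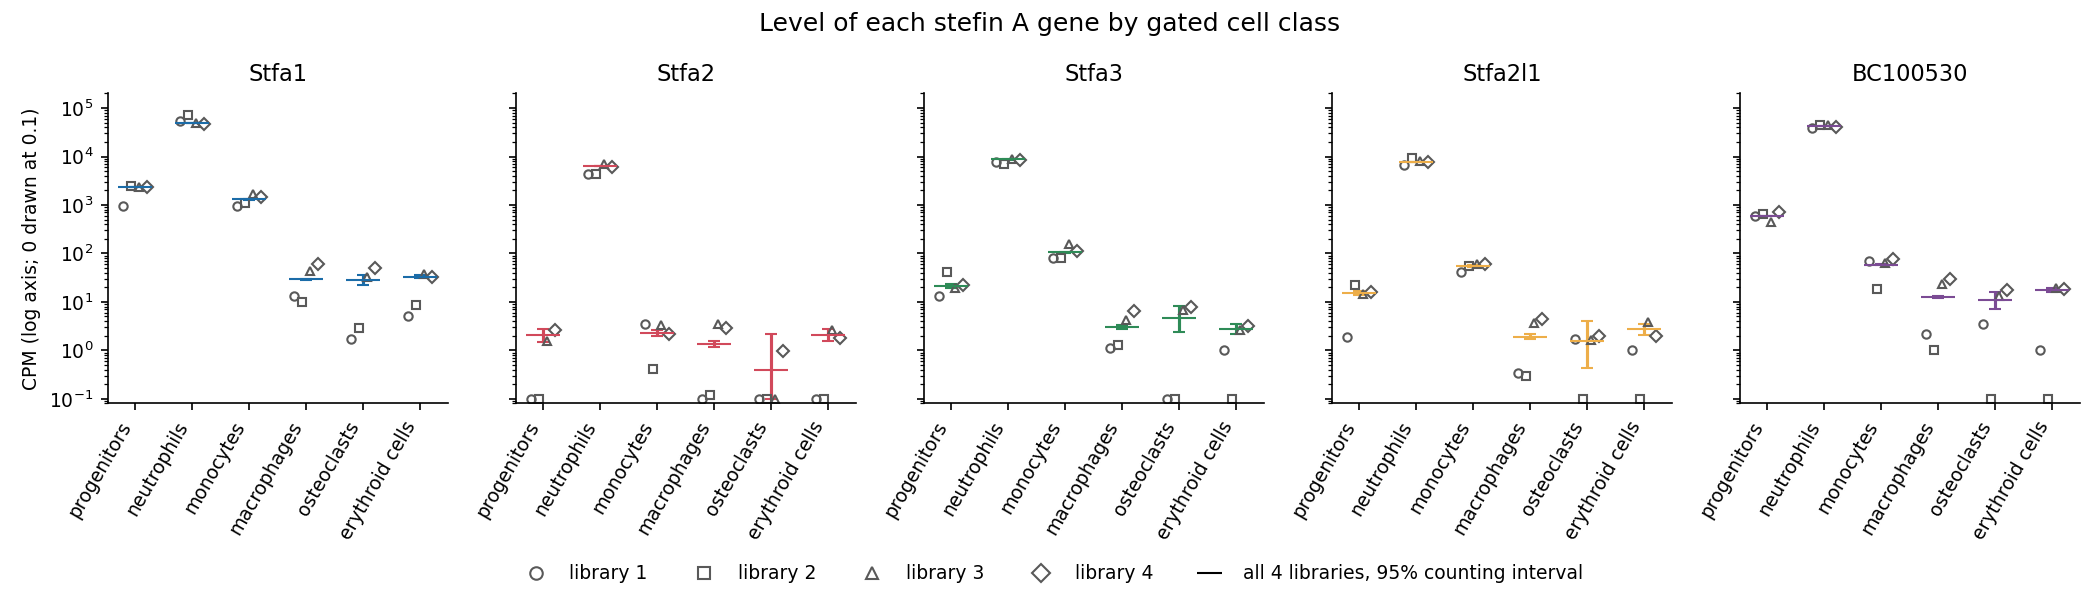
Level of each gene in CPM (log axis, 0 drawn at 0.1) in 5 myeloid classes and in erythroid cells, which serve as a class of another lineage. Horizontal marks are all 4 libraries together with exact Poisson 95% intervals, and open symbols are single libraries. Neutrophils are highest for every gene, and levels in macrophages and osteoclasts are low, near those in erythroid cells in all libraries together.

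Stfa1 was the most abundant member in every class of the myeloid path. It had 2336 CPM in progenitors (interval 2316 to 2356), 48335 CPM in neutrophils (48140 to 48531), 1303 CPM in monocytes (1295 to 1311), 29.4 CPM in macrophages (28.5 to 30.2) and 28.2 CPM in osteoclasts (22.1 to 35.5). By library, progenitors held 965, 2481, 2313 and 2406 CPM of Stfa1 in libraries 1 to 4. The low value of library 1 came from 23 cells, of which 1 cell held 83.6% of the UMIs (165 CPM without it), and the other libraries lay close together. Monocytes held 942, 1083, 1710 and 1484 CPM of Stfa1, so libraries 1 and 2 were lower than libraries 3 and 4.

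BC100530 was high in progenitors and neutrophils and low in monocytes. It had 592 CPM in progenitors (582 to 603), 42191 CPM in neutrophils (42008 to 42375), 58.4 CPM in monocytes (56.7 to 60.1), 12.5 CPM in macrophages and 10.97 CPM in osteoclasts. Progenitors of libraries 1 to 4 held 592, 640, 436 and 704 CPM of BC100530, and in library 1 the level was 11.8 CPM without a single cell that held 308 of 314 UMIs. Monocytes of libraries 1 to 4 held 68.9, 18.8, 64.9 and 75.4 CPM of BC100530. A single monocyte in library 1 held 39.4% of that library's UMIs of the gene, and the level without it was 41.8 CPM.

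Stfa3 and Stfa2l1 were low in progenitors and higher in monocytes. Stfa3 had 21.2 CPM in progenitors, 8717 CPM in neutrophils, 106 CPM in monocytes, 3.03 CPM in macrophages and 4.70 CPM in osteoclasts. Monocytes of libraries 1 to 4 held 79.3, 79.9, 156 and 114 CPM of Stfa3. Stfa2l1 had 15.2 CPM in progenitors, 7817 CPM in neutrophils, 54.8 CPM in monocytes, 1.93 CPM in macrophages and 1.57 CPM in osteoclasts, with 41.2, 54.4, 60.1 and 61.9 CPM in the monocytes of libraries 1 to 4. For both genes every library's monocytes were above its progenitors.

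Stfa2 was high in neutrophils alone among the 5 myeloid classes. It had 6456 CPM in neutrophils (6385 to 6528), against 2.07 CPM in progenitors. In monocytes, macrophages and osteoclasts Stfa2 had 2.29, 1.35 and 0.392 CPM, and in erythroid cells 2.07 CPM (1.54 to 2.72). Of the 189 Stfa2 UMIs in monocytes, 62 sat in a single cell of library 1, and the level without that cell was 1.54 CPM. For progenitors, monocytes, macrophages and osteoclasts as whole classes, no counting interval of Stfa2 lay above that of erythroid cells.

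Neutrophils against progenitors gave log2 differences, on the log2(CPM + 10) scale used throughout, of 9.07 for Stfa2, 8.28 for Stfa2l1, 8.13 for Stfa3, 6.13 for BC100530 and 4.36 for Stfa1. All 5 members were at least 4-fold higher, as were 5.82% of the 3042 genes with at least 50 CPM in either class. The median of those genes was −1.12, so scaling to total UMIs puts most genes lower in neutrophils, and the summed difference of 5.25 was 6.38 relative to that median. The members' median was 8.13. Stfa2, Stfa3 and Stfa2l1 reached 50 CPM only through neutrophils, so their call was largely set by that filter. The levels of both classes were also among those used to choose the genes, so the count of members is a description only. With 1 more marker required for every gate the summed difference was 4.65, and without progenitors that held any neutrophil marker it was 5.89. By library the summed difference was 5.40 and 5.13 in libraries 3 and 4, whereas libraries 1 and 2 held only 5 and 3 neutrophils.

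Monocytes against progenitors split the family. The log2 difference was 1.89 for Stfa3 and 1.36 for Stfa2l1, 0.03 for Stfa2, −0.84 for Stfa1 and −3.14 for BC100530. Of the 4 members with at least 50 CPM in either class, 0 were at least 4-fold higher and 1, BC100530, was at least 4-fold lower. The same fold was reached upward by 4.15% of all 3153 such genes and downward by 0.729%, and their median was −0.09. The members' median was 0.03. The summed difference was −0.96, and in libraries 1 to 4 it was −0.47, −1.36, −0.48 and −0.85. Libraries 1 and 2 held only 23 and 19 progenitors. In library 1 a single progenitor held 83.6% of the Stfa1 UMIs. Without it progenitors had 165 CPM of Stfa1, below the 942 CPM of that library's monocytes. The summed difference of library 1 without that cell was not computed. Without cells that held a neutrophil marker the summed difference in all libraries was −1.51. For Stfa3 that setting gave 43.5 CPM in monocytes, against 16.7 CPM in progenitors. The log2 differences were 0.45 for Stfa2l1, −1.55 for Stfa1 and −2.47 for BC100530.

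Progenitors were uneven. Single cells ranged up to 101286 CPM of the summed genes, with a median of 709 CPM, and the tenth of cells with most UMIs of the family held 65.9% of them. Of the 851 progenitors, 676 had none of the neutrophil markers, 137 had 1 and 38 had 2. BC100530 had 159, 621 and 8539 CPM in these 3 ranges, and Stfa1 had 1713, 2630 and 12612 CPM. BC100530 thus differed far more between the ranges than Stfa1, and its share of the family's UMIs was 8.36%, 18.9% and 39.8%. In libraries 3 and 4 the level of BC100530 was 170 and 165 CPM with none of the markers and 5411 and 10438 CPM with 2.

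Cells with 2 neutrophil markers, 4.47% of progenitors, held 29.9% of the family's UMIs in progenitors. Camp, which encodes a secondary granule protein and is itself a neutrophil marker, had 8.33, 195 and 2370 CPM in the 3 ranges. Mpo, a primary granule enzyme, had 5046, 5601 and 7689 CPM. Cebpe, a transcription factor needed for secondary granules, had 47.1, 65.0 and 201 CPM. Stfa2 had 1.57, 1.67 and 13.02 CPM, the last (interval 6.73 to 22.8) above its level in erythroid cells.

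**Figure D2:**
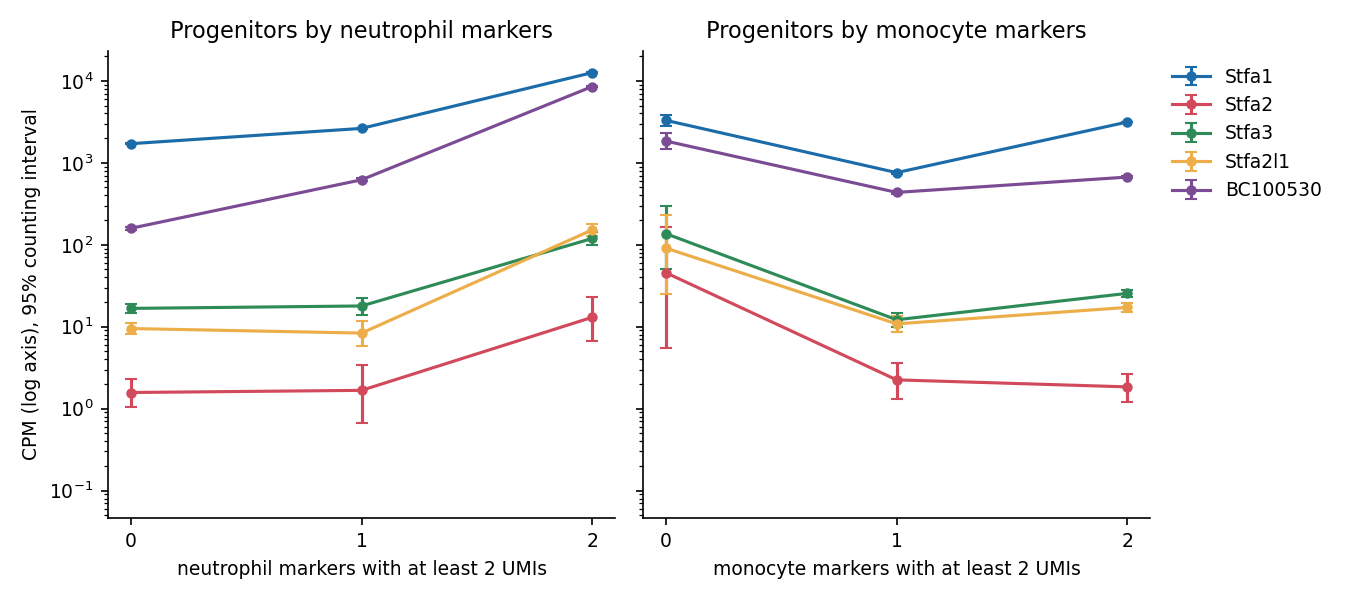
Level of each gene in CPM (log axis, exact Poisson 95% intervals) in progenitors that held 0, 1 or 2 neutrophil markers (left) or monocyte markers (right). BC100530 spans 159 to 8539 CPM on the left, whereas Stfa1 with 1 and 2 monocyte markers has 759 and 3149 CPM. The class with 0 monocyte markers holds only 21 shallow cells.

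Progenitors split by monocyte markers gave another picture. Stfa1 had 759 CPM in 319 progenitors with 1 monocyte marker and 3149 CPM in 511 progenitors with 2, and BC100530 had 435 and 670 CPM. With 1 marker the libraries were far apart, at 171 CPM of Stfa1 in library 3 and 1035 CPM in library 4, whereas with 2 markers they had 3367 and 3186 CPM. Cells that passed both the progenitor and the monocyte gate, 1046 in number, held 3025 CPM of Stfa1 (interval 3007 to 3044), above both progenitors and monocytes. By library these cells held 1982, 2717, 3143 and 3419 CPM of Stfa1. BC100530 had 181 CPM there and Stfa3 66.4 CPM, values between those of progenitors and monocytes. In contrast, the 58 cells that passed both the progenitor and the neutrophil gate held 46648 CPM of Stfa1 and 37013 CPM of BC100530, near the levels of neutrophils, but 624 CPM of Stfa2. Stfa3 and Stfa2l1 had 2978 and 2646 CPM in them.

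Within neutrophils the members differed along an order given by granule genes. Cells were ordered by the share of Retnlg and Mmp8, genes of late granules, among the UMIs of Ngp, Camp, Ltf, Retnlg and Mmp8. From the lowest to the highest of 5 ranges of that share, Stfa2 had 3734, 7010, 8092, 9296 and 8025 CPM. Stfa1 had 49897, 51901, 50699, 47177 and 35915 CPM. Stfa2 was thus lowest where that share was lowest, and Stfa1 where it was highest.

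Stfa3 was highest in the middle, with 7090, 10019, 10907, 10206 and 6389 CPM. BC100530 had 37309, 46475, 49561, 45398 and 34481 CPM, and Stfa2l1 had 6789, 8439, 8728, 9002 and 7227 CPM. Mki67, a proliferation gene, had 178 CPM in the lowest range of the share and 15.6 to 53.7 CPM in the others. The median depth was 7622 UMIs in the lowest range and 4155 in the highest. Depth therefore moved with the order, and its part in the result was not tested.

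**Figure D3:**
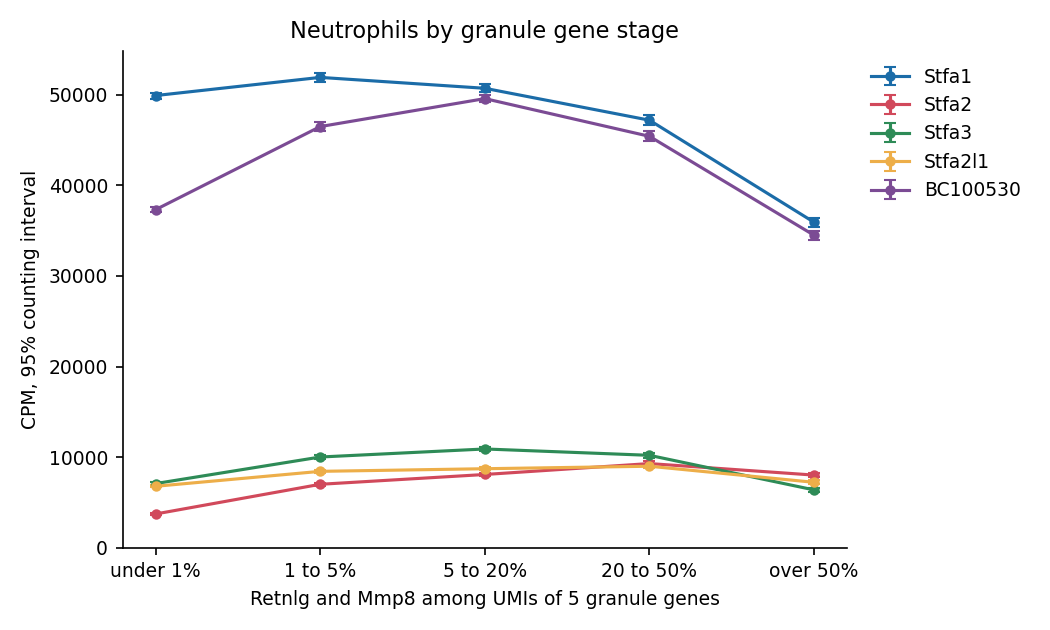
Level of each gene in CPM (linear axis from 0, exact Poisson 95% intervals) in neutrophils split by the share of Retnlg and Mmp8 among the UMIs of 5 granule genes. Stfa1 and BC100530 lie far above the other 3 genes, Stfa2 goes up to 9296 CPM in the range of 20 to 50%, and Stfa1 is lowest in the highest range of the share, at 35915 CPM.

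In monocytes the family was concentrated in a minority of cells. The median monocyte held 79.9 CPM of the summed genes, 32.7% held no UMI, and the tenth with most UMIs held 83.4% of them. Levels went with Ly6c2, the surface antigen of inflammatory (classical) monocytes and 1 of the monocyte markers. In 1823 monocytes with no Ly6c2 UMI, Stfa1 had 74.9 CPM, and in ranges of above 0 to 3, 3 to 6, 6 to 12 and over 12 Ly6c2 UMIs per 10000 it had 277, 1626, 5238 and 8800 CPM. Stfa3 had 9.61, 30.1, 157, 428 and 622 CPM over the same ranges, and Stfa2l1 had 1.94, 8.90, 71.7, 213 and 395 CPM.

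The order was the same in every library for Stfa1, which had 42.9 to 101 CPM with no Ly6c2 UMI and 7690 to 10029 CPM over 12. The 788 monocytes with more than 6 Ly6c2 UMIs per 10000 were 18.7% of monocytes and held 78.9% of the family's UMIs in monocytes. Stfa2 did not follow, with 1.14 to 4.50 CPM over the 5 ranges. S100a8, a subunit of calprotectin, had 110, 472, 4511, 15576 and 26826 CPM over them.

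Monocytes that also held macrophage markers had less of the family. With 0, 1, 2 and 3 macrophage markers, Stfa1 had 2567, 1371, 573 and 250 CPM, and Stfa3 had 213, 111, 40.8 and 20.8 CPM. In libraries 2, 3 and 4 Stfa1 stepped down at each added marker, whereas in library 1 it had 411 CPM with 2 and 500 CPM with 3. The 1425 cells that passed both the monocyte and the macrophage gate held 214 CPM of Stfa1 (interval 209 to 220) and 18.4 CPM of Stfa3. By library they held 173, 265, 211 and 220 CPM of Stfa1, each above the macrophages and below the monocytes of its library. Ly6c2 itself was lower with more macrophage markers (453, 308, 156 and 74.0 CPM), so the 2 orders are not independent.

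**Figure D4:**
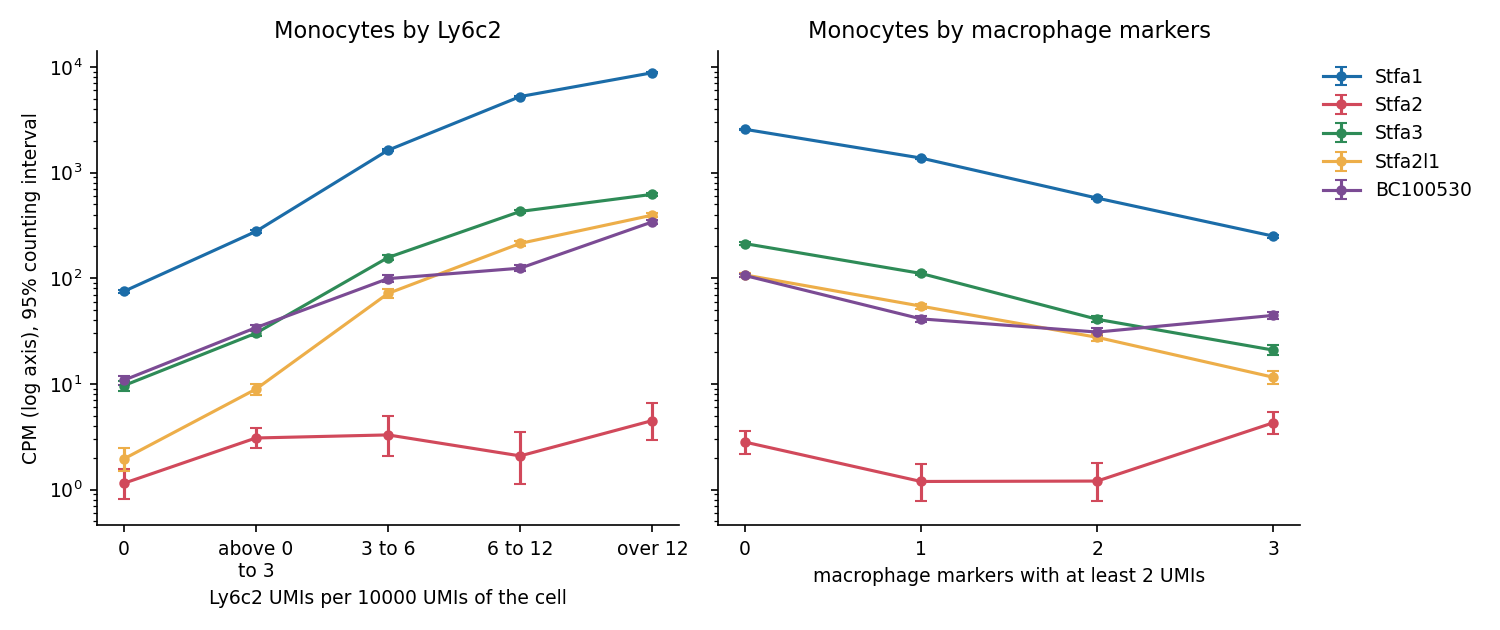
Level of each gene in CPM (log axis, exact Poisson 95% intervals) in monocytes split by Ly6c2 UMIs per 10000 (left) and by the number of macrophage markers (right). Stfa1 spans 74.9 to 8800 CPM on the left and 2567 to 250 CPM on the right, while Stfa2 stays under 5 CPM.

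Of the neutrophil granule genes, some followed the family in monocytes and others did not. Ngp had 7.24 to 11.2 CPM over the 5 Ly6c2 ranges, near its 8.98 CPM in macrophages and 13.02 CPM in erythroid cells. Mmp8 went up with Ly6c2, with 13.7 to 158 CPM, and so did Lcn2, with 2.14, 5.65, 16.3, 33.1 and 58.1 CPM. Of the 4207 monocytes, 936 held at least 2 UMIs of a neutrophil marker, mostly Mmp8 (788 cells), and they held 66.9% of the family's UMIs in monocytes. The 88 monocytes with Lcn2, 2.09% of the class, held 26.1% of those UMIs. No monocyte held 2 UMIs of Ly6g or Cd177, which mark neutrophils. Both genes belong to the neutrophil gate, and cells that passed it as well were left out of the monocytes, so nothing is read from this absence. The 94 cells that passed both gates held 346 CPM of Cd177. Without the 936 cells that held a neutrophil marker Stfa1 had 579 CPM in monocytes.

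Macrophages against monocytes, the contrast by which the genes were chosen, gave log2 differences of −5.06 for Stfa1, −3.15 for Stfa3, −2.44 for Stfa2l1, −1.60 for BC100530 and −0.11 for Stfa2. Of 4 members with at least 50 CPM in either class 3 were at least 4-fold lower, and so were 1.34% of all 3127 such genes, whose median was −0.09. All 4 reached 50 CPM only through monocytes, a filter that favours a lower call, so the count of members is a description only. The summed difference was −4.72, with −5.40, −5.78, −4.50 and −3.94 in libraries 1 to 4. It was −3.66 once macrophages and monocytes with a neutrophil marker were left out. In that setting Stfa1 (−3.99) and Stfa3 (−2.07) were still at least 4-fold lower, while Stfa2l1 (−1.21) was not.

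Library by library, the low Stfa1 value left in macrophages lay between those of 2 classes of other lineages. Only in library 4 was its interval apart from those of both. Stfa1 had 13.4, 10.0, 43.7 and 60.1 CPM in the macrophages of libraries 1 to 4, and 5.07, 8.80, 37.8 and 33.1 CPM in the erythroid cells of the same libraries. In library 3 a single erythroid cell held 26.3% of the Stfa1 UMIs. Without the highest cell of each class the levels there were 28.0 CPM in erythroid cells and 40.5 CPM in macrophages. With all libraries together macrophages had 29.4 CPM and erythroid cells 33.3 CPM, the reverse order. The intervals of macrophages and erythroid cells did not overlap in library 4 (57.7 to 62.6 against 29.8 to 36.6) and in library 1 (12.4 to 14.51 against 1.65 to 11.8). Mesenchymal cells held 17.8, 14.2, 52.6 and 79.9985 CPM of Stfa1, in value above the macrophages of each library. The intervals of these 2 classes overlapped in libraries 1 to 3 and not in library 4, where mesenchymal cells had 67.5 to 94.1. Their level without the highest cell was not computed. All 3 classes were higher in libraries 3 and 4, which held most neutrophils, and the part of stray RNA in these levels was not tested. After thinning each cell to 2000 UMIs, 9.03% of macrophages and 32.9% of monocytes held a UMI of any member, against 11.6% of erythroid cells and 13.4% of mesenchymal cells. In the same cells before thinning 34.9%, 67.4%, 73.7% and 38.3% held such a UMI, at median depths of 12617, 18705, 37185 and 9824 UMIs. The share in macrophages was not above that in either of the other lineages, while the CPM was above that of erythroid cells by library, so no order is read from the shares. Thinning left out 295 macrophages, 8 monocytes, 3 erythroid and 35 mesenchymal cells.

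The make-up of these UMIs in macrophages was also unlike that in monocytes. BC100530 took 26.0% of the family's UMIs in macrophages, 3.83% in monocytes, 37.2% in neutrophils and 30.2% in erythroid cells. By library the share was 12.8%, 7.98%, 30.1% and 29.0% in macrophages, against 6.07%, 1.52%, 3.25% and 4.34% in monocytes. It was thus higher in the macrophages of every library, but the macrophages of libraries 1 and 2 were far below those of libraries 3 and 4. The ratio of BC100530 to Stfa1 UMIs in macrophages split in the same way, at 0.164, 0.101, 0.543 and 0.502, so the pooled value depends on the mix of libraries. In monocytes the ratio was 0.0732, 0.0173, 0.0380 and 0.0508, and in neutrophils 0.726, 0.611, 0.908 and 0.855. Microglia, the macrophages of the brain, held 37.0 CPM of Stfa1, and Kupffer cells, those of the liver, held 29.8 CPM.

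**Figure D5:**
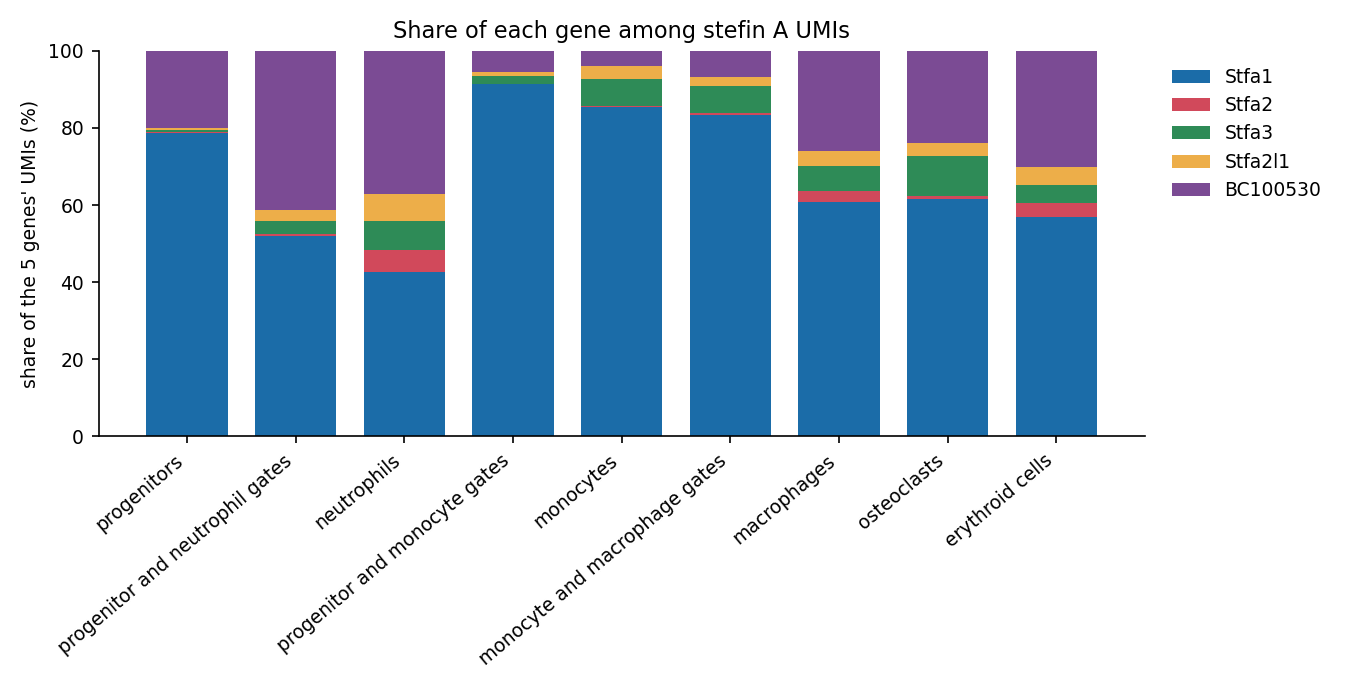
Share of each gene, in percent, among the UMIs of the 5 genes in 9 classes, 3 of which passed the gates of 2 types at once. Stfa1 takes 91.4% in cells of the progenitor and monocyte gates and 42.6% in neutrophils, and BC100530 takes 3.83% in monocytes and 26.0% in macrophages.

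Osteoclasts held no more of the family than macrophages. The summed level was 45.8 CPM in osteoclasts and 48.2 CPM in macrophages, a log2 difference of −0.06, and the 95 osteoclasts held 117 UMIs of the family in all. No member had 50 CPM in either class, so 0 could be called, whereas 8.68% of 3225 genes were at least 4-fold higher or lower (median 0.12). The single libraries gave −0.69, −0.82, −0.45 and −0.38. By library the osteoclasts held 1.71, 2.90, 33.2 and 49.0 CPM of Stfa1, on 21, 14, 23 and 37 cells, which again were the low and high libraries of the macrophages. In libraries 1 and 2 the Stfa1 value was 1 UMI each, and the summed genes had only 4 and 1 UMIs there. With 1 more marker for every gate the difference was −0.39.

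Epithelial cells, the other cells in which stefin A is known, were too few to describe. BC100530 had 94.9 CPM and Stfa3 32.6 CPM in 74 of them, but 1 cell held 104 of the 128 BC100530 UMIs. Without it the levels were 18.1 CPM for BC100530 and 13.6 CPM for Stfa3.

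Of the other stefin A genes of the cluster, those in the matrix were highest in neutrophils among the 5 myeloid classes. Of 8 listed, 5 were in the matrix under these symbols and 4 had at least 50 CPM in neutrophils or progenitors, all at least 4-fold higher in neutrophils (median log2 difference 6.42). Of all genes 5.82% were that much higher. BC117090 (136 against 0.898 CPM), Gm5416 and 2010005H15Rik reached 50 CPM only through neutrophils, so their call was largely set by that filter. Some 50-base windows near the 3-prime ends of Stfa1 and BC100530 also occur in BC117090. Gm5483 had 28144 CPM in neutrophils, against 230 CPM in progenitors, with 173 CPM in monocytes, 10.2 CPM in macrophages and 8.62 CPM in osteoclasts. It was more abundant in neutrophils than 3 of the 5 genes. The level of 2010005H15Rik was 4621 CPM in neutrophils, against 7.59 CPM in progenitors, and that of Gm5416 was 849 CPM, against 3.64 CPM. Csta1 reached 4.96 CPM in neutrophils.

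Inhibitors outside the cluster were mixed. Cstb, which encodes stefin B, the ubiquitous member of the same inhibitor type, had 665 CPM in macrophages, against 304 CPM in monocytes, and 1165 CPM in osteoclasts. Cst3, the secreted cystatin C, had 2579 CPM in macrophages, against 2127 CPM in monocytes. Among 4 such cystatins, 2 had at least 50 CPM in macrophages or monocytes, and 0 were at least 4-fold higher or lower. Of 7 other protease inhibitors, 2 had that level, both through macrophages, and both, Serpinb6a (281 CPM in macrophages, against 19.5 CPM in monocytes) and Timp2 (92.6 against 4.18 CPM), were at least 4-fold higher. That filter favours a higher call, and the share of all genes that much higher was not computed. Slpi, an inhibitor of neutrophil elastase, had 1006 CPM in neutrophils, against 92.3 CPM in progenitors, and 1.21 CPM in macrophages, against 39.9 CPM in monocytes. Serpinb1a, a cytosolic inhibitor of the serine proteases of granules, had 783 CPM in neutrophils, against 342 CPM in progenitors, and 4.56 CPM in macrophages, against 37.7 CPM in monocytes (log2 difference −1.71).

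Several cathepsins, the targets of stefins, were high in macrophages. Legumain, which is not a papain-family cathepsin, was counted with them in a list of 11 genes. Of these, 8 had at least 50 CPM in macrophages or monocytes, with a median log2 difference of 0.96 against −0.09 over all genes. In macrophages 3 of them, legumain included, were at least 4-fold higher and 0 lower. The share of all genes at least 4-fold higher in macrophages was not computed. Ctsb, cathepsin B, had 5085 CPM in macrophages, against 914 CPM in monocytes. Lgmn, legumain, had 2200 against 300 CPM in the same order. Ctsc, cathepsin C, which activates the serine proteases of granules, had 1384 CPM in macrophages, against 2232 CPM in monocytes. Ctsk, the collagen-degrading cathepsin of osteoclasts and a marker of their gate, had 2264 CPM in osteoclasts, against 0.840 CPM in macrophages. In neutrophils, against progenitors, 0 of 7 were at least 4-fold higher and 2 were lower, Ctsc with 109 against 470 CPM and Ctsz with 106 against 502 CPM. Of all genes 5.82% were that much higher. The share that much lower was not computed, and the median of all genes was −1.12.

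Granule genes split by granule type. The 4 primary granule genes were all at least 4-fold lower in neutrophils than in progenitors, with a median of −6.07. The share of all genes that much lower was not computed, and the median of all genes was −1.12. Mpo, for example, had 78.5 CPM in neutrophils, against 5260 CPM in progenitors. The 8 genes of secondary and tertiary granules were all at least 4-fold higher, with a median of 8.02, as were 5.82% of all genes. Ngp had 36611 CPM in neutrophils, against 15.9 CPM in progenitors, and Camp 23375 against 141 CPM. All genes of both lists served as gate markers, so these values describe the gates. Unlike either list, Stfa1 was above 1000 CPM in progenitors, neutrophils and monocytes.

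Calprotectin and related genes shared the course in monocytes. Of 10 such genes, 9 had at least 50 CPM in macrophages or monocytes, and 8 were at least 4-fold lower in macrophages (median of the 9 −3.58). Of all genes 1.34% were that much lower. Of those 8, all but S100a8 and S100a11 reached 50 CPM only through monocytes, a filter that favours a lower call. S100a8 had 72.4 CPM in macrophages, against 3727 CPM in monocytes, and S100a9, the other subunit, 37.7 against 808 CPM. Anxa1, an anti-inflammatory annexin, had 5347 CPM in neutrophils, against 181 CPM in progenitors. In osteoclasts Anxa1 had 536 CPM, against 41.1 CPM in macrophages, and S100a11, another S100 protein, had 392 against 80.8 CPM, whereas no stefin A gene reached 50 CPM.

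Among 11 myeloid transcription factors, 6 had at least 50 CPM in macrophages or monocytes, with 1 at least 4-fold higher in macrophages and 0 lower. That factor was Maf, a factor of mature macrophages, with 519 CPM in macrophages, against 86.5 CPM in monocytes. Of all genes 1.34% were at least 4-fold lower in macrophages, and the share that much higher was not computed. Spi1, which encodes PU.1, had 543 CPM in macrophages, against 612 CPM in monocytes. Cebpe had 496 CPM in neutrophils, against 56.9 CPM in progenitors. Irf8, which favours monocytes over neutrophils, had 29.95 CPM in neutrophils, against 311 CPM in progenitors. Of 10 genes of the cell cycle, 0 differed at least 4-fold between macrophages and monocytes (median −0.64). Birc5, the mitotic survivin gene, had 231 CPM in macrophages, against 415 CPM in monocytes, and Ube2c, a mitotic ubiquitin-conjugating enzyme, had 174 against 389 CPM.

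Across 54 combinations of class and library from 17 classes, the profiles of other genes were compared with that of the summed family. Gate markers, predicted genes (Gm and Rik symbols) and ribosomal and mitochondrial genes were left out of this ranking. Genes such as Ngp, Camp and Gm5483 were therefore not ranked. Of the genes ranked, the most like the summed family were S100a8 (Pearson r = 0.975 on the log2 scale) and S100a9 (0.974). They were followed by Slpi (0.939), Fcnb, the ficolin of granulocyte precursors (0.930), Hp, haptoglobin (0.917), and Cebpe (0.906). Gda, guanine deaminase (0.891), the myeloid receptor genes Trem3 (0.888) and Trem1 (0.876), and Wfdc21 (0.874) completed the 10 highest of 6451 genes. Within the family, r with Stfa1 was 0.910 for BC100530, 0.890 for Stfa3, 0.861 for Stfa2l1 and 0.711 for Stfa2. The points of a library share its depth and its stray RNA, so these values are descriptions.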

How the data were processed

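The deposited matrix holds raw UMI counts, which the authors had not normalized, with genes as features and cells as barcodes. They were made with Cell Ranger 2.1.1 on mm10, per the submitters' processing notes, whereas the file header names version 3.0.1. The members and gene lists were chosen with earlier results of these data known, and the gate thresholds after the data were seen. A cell was kept with at least 1000 UMIs, 500 genes and at most 10% of mitochondrial UMIs. This removed 4461 barcodes, of which 2756 had too few UMIs. Of the kept cells 25026 fell into 1 of 18 classes, 4932 passed no gate and 4629 passed several and were left out. That is how doublets were treated, and no doublet caller was run. CPM were computed from the summed UMIs of each class, in all cells and in each library. UMIs of 3-prime libraries were not divided by transcript length.

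Differences are log2(CPM + 10), which understates those of low genes, and at least 4-fold on this scale counted as higher or lower. No test was run, because 1 pooled sample has no replicates, in place of the edgeR test planned for the case that cells could be tied to samples. Shares carry exact Clopper-Pearson 95% intervals. The calculation of differences was checked on simulated counts with known folds. The named genes are the 5 members, the 2 to 4 most abundant of each of 9 lists (Csta1, the remaining genes of a called count and markers beside a range come in addition, chosen after their values were seen), and the 10 genes with the highest correlation. Alternatives were other cell filters, gates, denominators and pseudocounts, and each library left out. Python 3.11.15, numpy 2.4.6, scipy 1.17.1 and pandas 2.3.3 were used.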

Additional observations from a re-analysis of the deposited data

Results flagged for a closer look

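A pair of values came from barcodes that the comparisons did not use. In the 2756 barcodes with under 1000 UMIs the summed level of the 5 genes was 2036 CPM, near the 2211 CPM of all kept cells together. It was above the 48.2 CPM in macrophages and 58.6 CPM in erythroid cells. BC100530 took 30.04% of the family's UMIs in these barcodes (exact binomial 95% interval 28.6 to 31.5). That share lay between those of monocytes and neutrophils, near the 28.6% of all kept cells. By library, Stfa1 had 152 to 1921 CPM in these barcodes. In the 4932 kept cells that passed no gate the summed level was 461 CPM, with 204 to 374 CPM of Stfa1 by library. BC100530 took 16.8% of the family's UMIs there.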

How the results depend on the processing

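The first 3 summed differences below kept their sign in every setting that was run, and the fourth, near 0, lay between −0.39 and 0.06. For macrophages minus monocytes (−4.72) the value was −4.80 with a stricter cell filter (5000 UMIs, 1500 genes, 5% mitochondrial), −5.23 with 1 more marker per gate, −4.81 without the deepest 5% of cells, −4.83 without haemoglobin, mitochondrial and ribosomal genes in the total, and −4.95 with a pseudocount of 1. For monocytes minus progenitors (−0.96) it was −0.75 with 1 more marker, −1.26 without the deepest cells, −1.03 as a mean over cells and −1.06 with the reduced total. For neutrophils minus progenitors (5.25) these 4 settings gave 4.65, 4.86, 4.77 and 4.83, and the stricter filter 5.23. For osteoclasts minus macrophages (−0.06) 1 more marker gave −0.39 and the mean over cells −0.32. Leaving out each library in turn gave −5.19 to −4.51, −1.13 to −0.86, 5.16 to 5.42 and −0.18 to 0.02 for the 4 differences.

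A pair of settings was added after seeing the data. Without cells that held a neutrophil marker the first 3 differences were −3.66, −1.51 and 5.89, and relative to the median of all genes they were −4.63, −0.87 and 6.38. Of 262 values for single members, and for shares of cells with a UMI, under these settings, 124 lay outside the counting interval of the main value, and 0 changed the sign of a log2 difference of at least 1. No paired analysis was possible because barcodes carry no sample label. The causes were not tested. The osteoclast values rest on 95 cells and 117 UMIs of the family.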

Other observations

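Cells that passed both the monocyte and the neutrophil gate numbered 94. They held 40191 CPM of Stfa1, 29854 CPM of BC100530 and 3552 CPM of Stfa2, with 29032 CPM of Ngp, and BC100530 took 35.04% of their stefin A UMIs.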
